A study of Caenorhabditis elegans with 12 samples.

Results

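The target genes of DAF-16 examined here are 10 genes known from the literature as activated by it: mtl-1, sod-3, dod-3, hil-1, ftn-1, icl-1, hsp-12.6, nnt-1, lea-1 and scl-1. They were chosen by name, for what the literature says of them, and each was found by its WormBase identifier among the 46748 gene identifiers of the count table. Of the 10, 9 passed the filter on low counts and were tested, together with 16618 genes in all. The gene not tested, scl-1, was close to absent.

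DAF-16 is the single FOXO transcription factor of Caenorhabditis elegans. When the insulin receptor DAF-2 is active, the kinases AKT-1 and AKT-2 phosphorylate DAF-16 and keep it in the cytoplasm. When the receptor is less active, DAF-16 enters the nucleus and raises genes of stress resistance and metabolism. Several of these genes are used as reporters of DAF-16 activity.

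RNA came from whole hermaphrodites at an age of 5 days. There were 12 libraries in 4 groups, each with 3. Libraries 1, 3 and 5 are CF1038 animals, which carry daf-16(mu86), a deletion in the DAF-16 gene, on bacteria with the empty vector L4440. Libraries 2, 4 and 6 are the same strain on bacteria labelled as bcat-1 RNAi. Libraries 7, 9 and 11 are TU3311 animals, which carry a sid-1 transgene that lets neurons take up fed double-stranded RNA, on the empty vector, and libraries 8, 10 and 12 are TU3311 on bacteria labelled as daf-7 RNAi. TU3311 has no labelled change in daf-16. It is not given as the parent of CF1038, so an effect of daf-16(mu86) and any other difference between the strains cannot be told apart. The library titles also carry 1 name stem for all daf-16(mu86) libraries and another for all TU3311 libraries, while the descriptions share a single stem. What the stems stand for is not stated, and any technical difference between them cannot be told apart from the strain. No group combines daf-16(mu86) with daf-7 RNAi or TU3311 with bcat-1 RNAi.

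Total counts ran from 30130249 to 45343624. Nothing in the labels tells if replicate libraries were separate cultures, and each p-value thus covers the spread among libraries alone, which could be technical. Libraries 7 and 8 stood apart from the other 4 of TU3311. Their summed counts of 6 intestine markers were 60682 and 56799 CPM (counts-per-million, TMM-scaled), against 23125 to 38495 CPM in the other TU3311 libraries. daf-16 itself stood at 83.5 ± 5.42 CPM (SD, n = 3) in daf-16(mu86) and at 195 ± 12.7 CPM in TU3311, both on vector (log2 -1.22 ± 0.19 SE, edgeR adjusted p = 0.00581), and reads of the part of the gene outside the deletion can still be counted. The other 2 labelled targets were not lower: bcat-1 stood at 199 ± 29.6 CPM under its own label and 140 ± 10.2 CPM on vector, and daf-7 at 94.5 ± 55.6 and 8.89 ± 2.97 CPM. The RNAi groups are therefore named below as the libraries labelled bcat-1 or daf-7 RNAi.

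The levels of the genes spanned a wide range. Scaled per kilobase of exon, mtl-1 was the most abundant of them in the TU3311 vector libraries at 575 ± 162 CPM per kilobase (SD, n = 3), followed by icl-1 at 137 ± 46.6 and lea-1 at 100.1 ± 17.3. The levels of icl-1 and lea-1 did not differ beyond their spread. Next came dod-3 at 56.4 ± 39.3, hil-1 at 39.3 ± 15.6 and ftn-1 at 29.8 ± 12.05 CPM per kilobase, whose ranges overlapped, then nnt-1 at 6.22 ± 4.06, sod-3 at 4.75 ± 2.80 and hsp-12.6 at 3.23 ± 1.45, which overlapped too. In the daf-16(mu86) vector libraries the order of the means changed: icl-1 (80.4 ± 12.5) and lea-1 (54.8 ± 5.76 CPM per kilobase) stood above mtl-1 (35.1 ± 14.7). The ranges of lea-1 and mtl-1 overlapped, and in library 3 mtl-1 (51.6) was above lea-1 (48.3). sod-3 was the lowest of the 9 tested genes at 0.523 ± 0.0814. Of the 10 genes, 6 lie on chromosome V, which holds 20.6% of the tested genes with a known place.

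**Figure D1:**
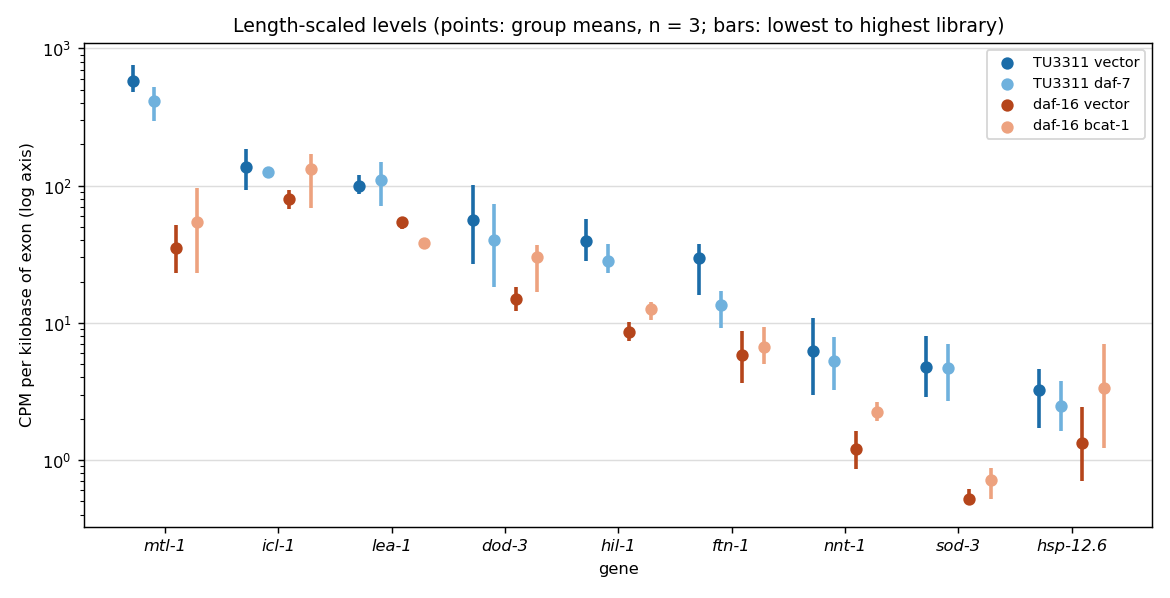
Levels of the 9 tested genes per kilobase of exon in the 4 groups, on a log axis. Points are group means of 3 libraries and bars run from the lowest to the highest library. mtl-1 stands at 575 CPM per kilobase in the TU3311 vector group and at 35.1 in the daf-16(mu86) vector group.

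The first comparison asks how these genes differ between the strain with the daf-16 deletion and TU3311, both on empty vector. Of the 9 tested members 5 were lower in daf-16(mu86): the metallothionein gene mtl-1, the ferritin gene ftn-1, the superoxide dismutase gene sod-3, the transhydrogenase gene nnt-1 and the linker histone gene hil-1. Their folds ran from 4.56 to 16.3. No member was higher. Among all 16618 genes, 6.5% were lower and 0.132% were higher in the same test, in which a gene was called at a Benjamini-Hochberg adjusted p under 0.05. The median log2 difference was -2.19 over the 9 members and -0.38 over all genes. Each comparison reported here shares its vector libraries with at least one of the others.

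mtl-1 (WBGene00003473, WBcel235 chromosome V, 6691371 to 6691863, minus strand) encodes a small cysteine-rich protein that binds metal ions. It was read at 11.5, 19.2 and 8.63 CPM in libraries 1, 3 and 5 of daf-16(mu86) on vector, and at 284, 179.7 and 179 CPM in libraries 7, 9 and 11 of TU3311 on vector. Every TU3311 library was above every daf-16(mu86) library, and library 7 was the highest. mtl-1 was 16.3-fold lower in daf-16(mu86) (log2 -4.03 ± 0.49 SE, edgeR adjusted p = 0.00137), and it passed in each of the 14 other settings run. The paralog mtl-2 stood at 45.8 ± 17.3 CPM in daf-16(mu86) and 57.4 ± 12.8 CPM in TU3311, with overlapping libraries (log2 -0.33 ± 0.30, adjusted p = 0.361). The difference between the paralogs was not itself tested.

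ftn-1 (WBGene00001500, chromosome V, 7546468 to 7547579, minus strand) encodes an intestinal ferritin, the protein shell that stores iron. Its values were 2.19, 3.04 and 5.30 CPM in libraries 1, 3 and 5, and 22.6, 21.98 and 9.65 CPM in libraries 7, 9 and 11. The groups did not overlap. ftn-1 was 5.14-fold lower in daf-16(mu86) (log2 -2.36 ± 0.42, edgeR adjusted p = 0.0126). The second ferritin gene, ftn-2, is the more abundant of the pair and stood at 217 ± 14.3 CPM in daf-16(mu86) and 225 ± 86.5 CPM in TU3311 (log2 -0.06 ± 0.28, adjusted p = 0.874).

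sod-3 (WBGene00004932, chromosome X, 17092753 to 17094306, plus strand) encodes a mitochondrial manganese superoxide dismutase and is widely used as a reporter of DAF-16. It was read at 0.423, 0.416 and 0.543 CPM in libraries 1, 3 and 5, which rest on 43 reads in all, and at 7.02, 3.00 and 2.54 CPM in libraries 7, 9 and 11, which rest on 541. The lowest TU3311 library was above the highest daf-16(mu86) library. sod-3 was 9.04-fold lower in daf-16(mu86) (log2 -3.18 ± 0.47, edgeR adjusted p = 0.0044). Without library 7 the log2 difference was -2.58 (adjusted p = 0.00545). Its exons share 65 and 24 bases with genes on the opposite strand, C08A9.3 and lido-1, and the strand setting of the counting is not given in the sources used here. Of the 4 tested relatives of sod-3 none passed the test in edgeR. Their log2 differences ran from -1.66 to 0.51, and the most abundant, the cytosolic sod-1, stood at 163 ± 10.3 CPM in daf-16(mu86) and 156 ± 3.93 CPM in TU3311 (log2 0.06 ± 0.18, adjusted p = 0.78).

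nnt-1 (WBGene00003778, chromosome X, 6122311 to 6127554, plus strand) encodes the mitochondrial nicotinamide nucleotide transhydrogenase, which makes NADPH for the reduction of oxidised glutathione. It was read at 3.58, 2.81 and 5.27 CPM in libraries 1, 3 and 5, and at 34.9, 15.8 and 9.68 CPM in libraries 7, 9 and 11. Library 7 was far above its group, and the groups did not overlap. nnt-1 was 5.19-fold lower in daf-16(mu86) (log2 -2.38 ± 0.46, edgeR adjusted p = 0.0173). Without library 7 the log2 difference was -1.72 (adjusted p = 0.0331). Its exons share 27 bases with C15H9.9 on the opposite strand.

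hil-1 (WBGene00001852, chromosome V, 14949777 to 14952799, plus strand) encodes a linker histone of the H1 family, which binds DNA between nucleosomes. Its values were 6.73, 7.56 and 9.21 CPM in libraries 1, 3 and 5, and 52.0, 29.7 and 25.6 CPM in libraries 7, 9 and 11. The groups were well apart. hil-1 was 4.56-fold lower in daf-16(mu86) (log2 -2.19 ± 0.31, edgeR adjusted p = 0.00311). Of 8 tested relatives in the linker histone family, hil-7 was lower as well (12.9 ± 5.11 against 27.5 ± 5.93 CPM, log2 -1.09 ± 0.31, adjusted p = 0.0498), and the log2 differences of the 8 ran from -1.19 to 0.86.

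The other 4 tested genes did not pass in this comparison. dod-3 (WBGene00016052, chromosome V, 2730622 to 2731098, minus strand), named for acting downstream of DAF-16, was read at 6.04, 5.12 and 7.71 CPM in libraries 1, 3 and 5, and at 42.4, 17.4 and 11.2 CPM in libraries 7, 9 and 11. The groups did not overlap, but the TU3311 libraries were widely spread (log2 -1.91 ± 0.55, edgeR adjusted p = 0.0523). Without libraries 7 and 8 the difference was smaller and passed (log2 -1.18, adjusted p = 0.0331), and without library 7 alone it did not pass (log2 -1.19, adjusted p = 0.236).

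lea-1 (WBGene00002263, chromosome V, 10011923 to 10028168, plus strand) encodes a late embryogenesis abundant protein, of a kind that protects against water loss. It was read at 286, 233 and 275 CPM in libraries 1, 3 and 5, and at 417, 577 and 457 CPM in libraries 7, 9 and 11. The groups did not overlap, and the difference missed the threshold (log2 -0.87 ± 0.25, edgeR adjusted p = 0.0548). It passed without libraries 7 and 8 (adjusted p = 0.00354). Unlike for the 5 called genes, library 7 was here the lowest of its group. The exons of lea-1 share 19 bases with acl-2 on the opposite strand.

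icl-1 (WBGene00001564, chromosome V, 724332 to 728004, minus strand), once called gei-7, encodes the glyoxylate cycle enzyme that lets worms make sugar from fat. It was read at 213, 291 and 251 CPM in libraries 1, 3 and 5, and at 413, 581 and 291 CPM in libraries 7, 9 and 11, so the groups met at their edge (log2 -0.77 ± 0.32, edgeR adjusted p = 0.0972). hsp-12.6 (WBGene00002013, chromosome IV, 9446229 to 9447228, minus strand) encodes a small heat shock protein. It was read at 0.539, 0.650 and 1.87 CPM in libraries 1, 3 and 5, and at 3.55, 1.33 and 2.58 CPM in libraries 7, 9 and 11. These groups overlapped (log2 -1.29 ± 0.65, edgeR adjusted p = 0.131, and -2.15 without library 5). Among its 3 tested relatives, hsp-12.3 was lower in daf-16(mu86) (0.733 ± 0.219 against 2.14 ± 1.01 CPM, log2 -1.55 ± 0.40, adjusted p = 0.041).

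scl-1 (WBGene00004742, chromosome IV, 13056326 to 13057351, plus strand) encodes a secreted cysteine-rich protein of the SCP family. It had 5 reads over the 12 libraries: 0 in the daf-16(mu86) vector group, 3 in the group labelled bcat-1 RNAi, 1 in the TU3311 vector group and 1 in the group labelled daf-7 RNAi. A count of 0 in a single library allows a level of up to 3 counts (counting error only). Among the libraries with 0 reads, that limit ran from 0.0675 CPM in library 7 to 0.115 CPM in library 1. A strain difference in scl-1 was thus not detectable at this depth. Of 23 scl genes in the table, 9 were tested, and those low in daf-16(mu86) passed the filter on low counts through their TU3311 libraries, so how many of them were called is no measure of the family. scl-20 had 2, 0 and 3 reads in libraries 1, 3 and 5 and 314, 226 and 85 reads in libraries 7, 9 and 11. scl-24 had 1, 1 and 2 reads against 377, 44 and 165, and scl-25 had 1, 2 and 1 reads against 93, 10 and 37. How reads that fit several genes were counted is not given in the sources used here, which bears on this family.

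**Figure D2:**
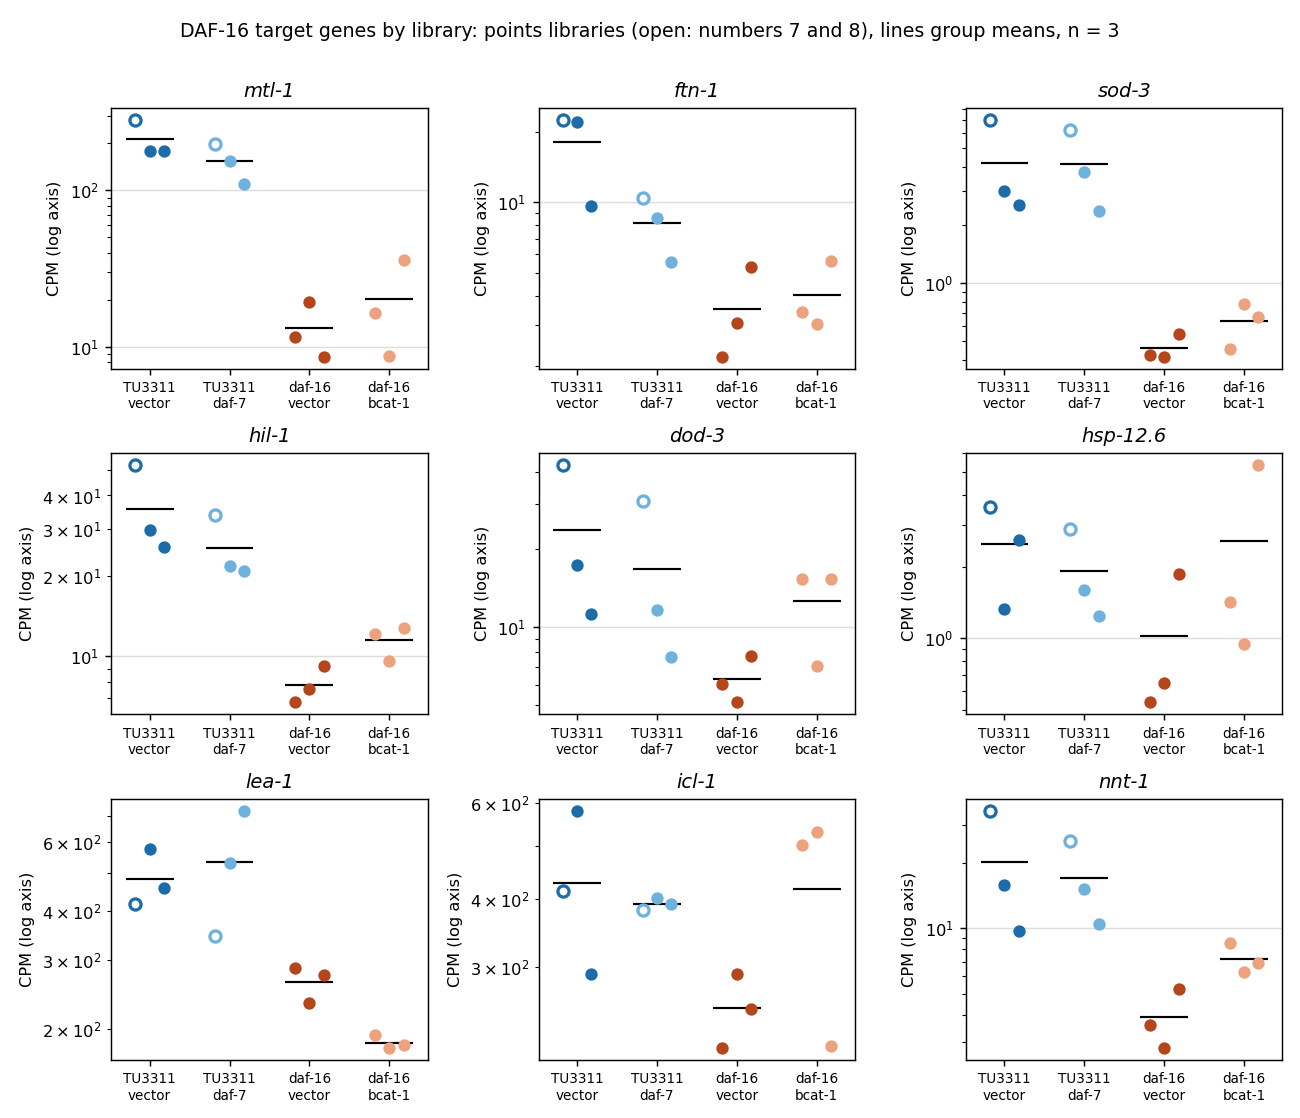
CPM of the 9 tested genes in each of the 12 libraries, on log axes that differ between panels. Points are libraries, lines are means of 3, and open points are libraries 7 and 8. mtl-1, sod-3, nnt-1, ftn-1, hil-1, dod-3 and lea-1 are lower in all 3 daf-16(mu86) vector libraries than in any TU3311 vector library.

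In 7 of the 9 tested genes (mtl-1, sod-3, dod-3, hil-1, ftn-1, nnt-1 and lea-1) every daf-16(mu86) vector library was below every TU3311 vector library, which held for 30.7% of all genes tested. Without libraries 7 and 8 the same 7 genes were called lower, against 15.7% of all genes. Leaving out 1 daf-16(mu86) library took away calls. Without library 1 or without library 3, hil-1, mtl-1 and sod-3 were called, when 0.305% and 0.516% of all genes were called lower. Without library 5 mtl-1 was the 1 member called, when 0.158% of all genes were. Several sums of tissue markers differed with the strain: the summed CPM of 5 body wall muscle markers was 312 to 410 on vector in daf-16(mu86) and 731 to 1331 in TU3311, that of 6 germline and oocyte markers 5033 to 5911 and 1553 to 3781, that of 5 sperm markers 0.808 to 1.90 and 2.93 to 13, and that of 5 embryo markers 12.7 to 13.2 and 14.7 to 23.8. The sums of intestine (23158 to 27304 and 23125 to 60682), neuron (289 to 310 and 289 to 342) and hypodermis markers (133 to 156 and 129 to 143) overlapped. No marker was at 0 in all 3 libraries of a group, but of the 5 sperm markers 0 reached 1 CPM in all 3 libraries of any group. The part of these markers in the strain differences was not tested, and in whole-animal RNA fewer cells of a type and less RNA per cell cannot be told apart.

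Other genes that the literature names as activated by DAF-16 were counted beside them. Of 27 listed, 25 were tested, and 9 were lower and 0 higher in daf-16(mu86), beside 6.5% and 0.132% of all genes (median log2 -1.16, all genes -0.38). The 9 were scl-20, cyp-35B1, ges-1, pck-1, lys-7, hsp-12.3, lipl-4, gpd-2 and tps-2, of which scl-20 passed the filter through its TU3311 libraries. cyp-35B1, a cytochrome P450 gene, stood at 2.56 ± 0.475 CPM in daf-16(mu86) and 14.7 ± 8.78 CPM in TU3311 (log2 -2.52 ± 0.47, edgeR adjusted p = 0.014). pck-1, the gene of the gluconeogenic enzyme PEP carboxykinase, stood at 67.3 ± 3.26 and 225 ± 142 CPM (log2 -1.74 ± 0.41, adjusted p = 0.0307), and lys-7, a lysozyme gene, differed by a log2 of -2.11 ± 0.53 (adjusted p = 0.0393). ges-1 (log2 -1.65), a gut esterase gene, is also one of the intestine markers above. The remaining called genes were lipl-4 (-2.22), a lysosomal lipase gene, tps-2 (-1.41), a trehalose synthesis gene, and gpd-2 (-0.91), a glycolysis gene. The log2 differences of the 25 ran from -6.40 to 0.20, the highest being that of sip-1, where the median of all genes was itself -0.38. Without libraries 7 and 8, 15 of the 25 were called lower, beside 15.7% of all genes.

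**Figure D3:**
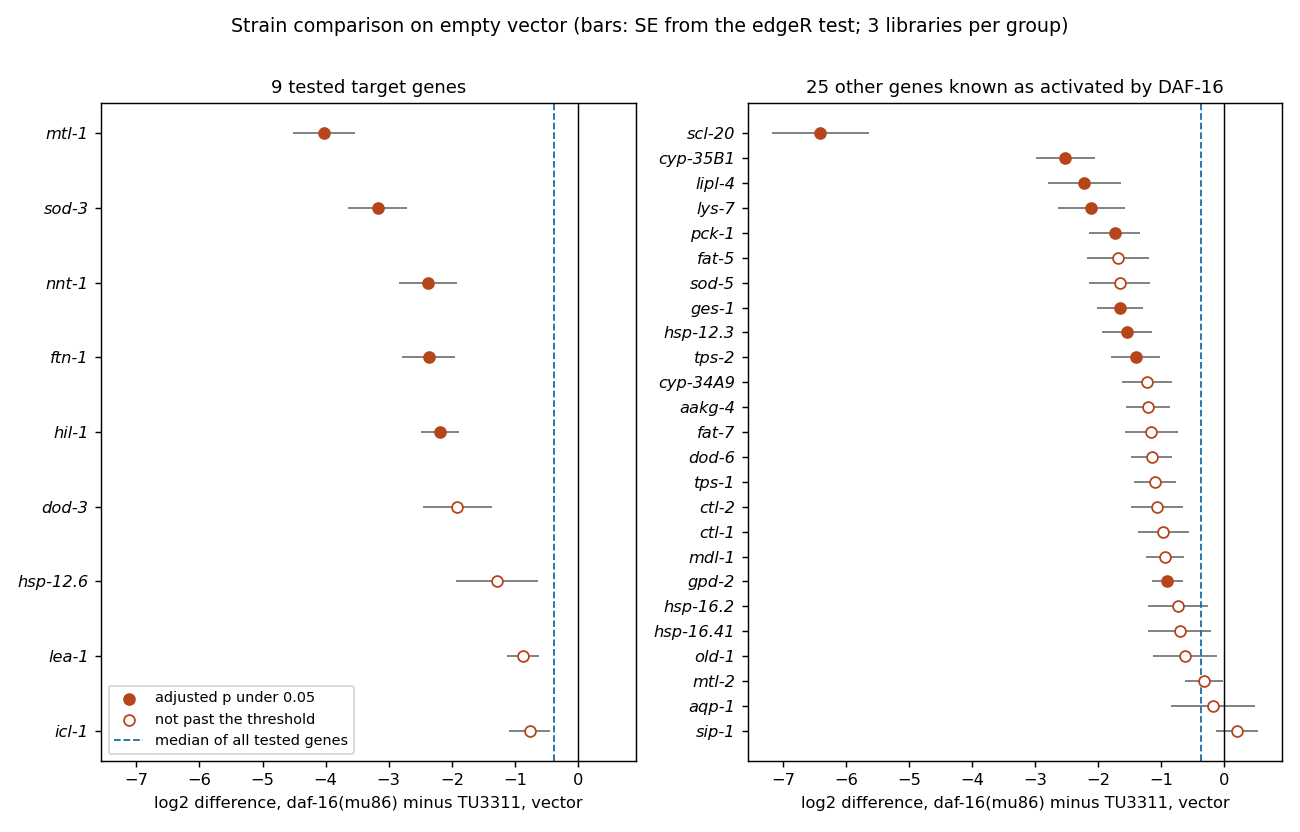
Log2 difference between daf-16(mu86) and TU3311 on empty vector for the 9 tested genes (left) and for 25 other genes known as activated by DAF-16 (right), 3 libraries per group. Bars are the SE, filled points have an adjusted p under 0.05, and the dashed line is the median of all tested genes at -0.38. The filled points are 5 on the left and 9 on the right.

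mtl-1 and sod-3 varied most over the 12 libraries, with an SD of log2 CPM of 1.97 and 1.503. The tested genes with the pattern nearest to mtl-1 were tyr-3, bgal-2 and aex-5, at root mean square differences of 0.59, 0.60 and 0.61 in centred log2 CPM over 12 libraries. Those nearest to sod-3 were abf-2, an antibacterial factor gene (0.296), clc-27 (0.30) and grl-9 (0.31). abf-2 averaged 6.67 CPM in the daf-16(mu86) vector group and 48.1 CPM in the TU3311 vector group. The 6 genes were picked for their likeness to mtl-1 or sod-3 over these same libraries. That each averaged less in both daf-16(mu86) groups than in both TU3311 groups thus follows from the choice. tyr-3, grl-9 and clc-27 were low in the daf-16(mu86) vector group, at means of 0.063, 0.156 and 0.214 CPM.

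The second comparison asks whether the genes respond within daf-16(mu86), where DAF-16 is impaired, to bacteria labelled as bcat-1 RNAi. None of the 9 tested genes passed the edgeR test, in which 4.18% of all genes were higher and 0.144% were lower. At an unadjusted p under 0.05, icl-1 was the 1 member of 9, against 3613 of 16618 genes. DESeq2, limma-voom and edgeR with RLE factors called 0 of 9. With the compared groups alone, dod-3, hil-1 and nnt-1 were called higher, beside 24% of all genes, and lea-1 lower, beside 16.5%. Without libraries 7 and 8 the same genes were called, beside 20.9% and 14.8%. In the fit of all 12 libraries the median log2 difference was 0.63 over the members and 0.16 over all genes. hil-1 and nnt-1 were higher in every labelled library than in any vector library, as were 29.5% of all genes, and lea-1 was lower, as were 25.1%.

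dod-3 was read at 15.4, 7.10 and 15.3 CPM in libraries 2, 4 and 6, against 6.04, 5.12 and 7.71 CPM on vector. The groups overlapped (log2 1.00 ± 0.54, edgeR adjusted p = 0.291). nnt-1 was read at 8.53, 6.27 and 6.94 CPM against 3.58, 2.81 and 5.27 CPM on vector (log2 0.90 ± 0.44, adjusted p = 0.253). hil-1 was read at 12.09, 9.61 and 12.8 CPM against 6.73, 7.56 and 9.21 CPM (log2 0.55 ± 0.30, adjusted p = 0.291). For nnt-1 and hil-1 the labelled libraries were all above the vector libraries, but still below every TU3311 vector library.

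lea-1 was the gene with lower values, at 193, 179 and 182 CPM in libraries 2, 4 and 6 against 286, 233 and 275 CPM on vector (log2 -0.52 ± 0.25, edgeR adjusted p = 0.253). hsp-12.6 stood at 1.42, 0.949 and 5.35 CPM against 0.539, 0.650 and 1.87 CPM. Its libraries 5 and 6, which are neighbours in number, were the highest of their groups (log2 1.34 ± 0.65, adjusted p = 0.248). Without library 6 the log2 difference was 0.22, and without library 5 it was 2.07. icl-1 was read at 503, 532 and 215 CPM against 213, 291 and 251 CPM, with library 6 at the vector level (log2 0.73 ± 0.32, adjusted p = 0.214).

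The 3 remaining genes include mtl-1 and sod-3, which had the largest strain differences. mtl-1 was read at 16.5, 8.66 and 35.7 CPM in libraries 2, 4 and 6 (log2 0.63 ± 0.44, edgeR adjusted p = 0.404), and all 3 values were far under the lowest TU3311 value of 109.7 CPM. sod-3 was read at 0.455, 0.777 and 0.666 CPM (log2 0.45 ± 0.48, adjusted p = 0.565), and ftn-1 at 3.42, 3.02 and 5.61 CPM (log2 0.20 ± 0.41, adjusted p = 0.775). For none of these genes does the p show that the groups are alike.

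The labels state no pairing, but deviations from group means correlated positively within neighbouring library numbers, 1 with 2 up to 11 with 12. No other pairing was compared, so the values do not single out this one. With the pair as a block, dod-3 (log2 0.94 ± 0.16, edgeR adjusted p = 0.0022), nnt-1 (0.92 ± 0.19, adjusted p = 0.00485), hsp-12.6 (1.21 ± 0.29, adjusted p = 0.00927) and hil-1 (0.55 ± 0.13, adjusted p = 0.0097) passed as higher and lea-1 as lower (-0.51 ± 0.15, adjusted p = 0.023). The same block called 25.7% of all genes higher and 18.5% lower, beside which 4 and 1 of 9 members stand, and no test compares these shares. Germline and oocyte markers were at 2992 to 3720 CPM in the labelled libraries and at 5033 to 5911 CPM on vector, and their part in these values was not tested.

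Among relatives of the members, 2 linker histone genes passed the test. hil-7 rose from 12.9 ± 5.11 to 68.1 ± 14.02 CPM (log2 2.39 ± 0.32, edgeR adjusted p = 0.00267) and passed in each of the 15 other settings. hil-8 fell from 2.23 ± 0.252 to 0.994 ± 0.279 CPM (log2 -1.16 ± 0.30, adjusted p = 0.0445) and passed in 6 of the 15. Of the 25 other DAF-16-activated genes 0 passed in either direction by edgeR. With the block 6 were higher and 6 lower, beside 25.7% and 18.5% of all genes, and no test compares these shares. The 4 with the smallest p were hsp-12.3 (log2 1.27 ± 0.40, adjusted p = 0.0902), the aquaporin gene aqp-1 (1.72 ± 0.68, 0.168), the small heat shock gene sip-1 (-0.76 ± 0.33, 0.209) and the desaturase gene fat-7 (-0.76 ± 0.42, 0.303).

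The third comparison asks whether the genes respond in TU3311, where daf-16 carries no labelled change, to bacteria labelled as daf-7 RNAi. daf-7 encodes a TGF-beta ligand made in sensory neurons, and the loss of this pathway is known to raise DAF-16 activity. None of the 9 tested genes passed, and among all genes tested 0.0% were higher and 0.0% lower. At an unadjusted p under 0.05 there was 1 member, ftn-1, and 77 of 16618 genes, and DESeq2 called 3 genes, none of them a member. The median log2 difference was -0.37 over the members and 0.01 over all genes. The hypodermis marker sum was 151 to 227 CPM in the labelled libraries and 129 to 143 CPM on vector, and its part in the values below was not tested.

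ftn-1 was read at 10.4, 8.54 and 5.57 CPM in libraries 8, 10 and 12, against 22.6, 21.98 and 9.65 CPM in libraries 7, 9 and 11. The highest labelled library was just above the lowest vector library (log2 -1.14 ± 0.40, edgeR adjusted p = 1, unadjusted p = 0.0131, and adjusted p = 0.102 with the block). No member separated the 2 groups, while 0.644% of all genes were lower in each labelled library than in any vector library. mtl-1 was read at 197, 155 and 109.7 CPM against 284, 179.7 and 179 CPM (log2 -0.48 ± 0.44), and hil-1 at 33.9, 21.7 and 20.9 CPM against 52.0, 29.7 and 25.6 CPM (log2 -0.49 ± 0.29). In both genes the first labelled library, number 8, was above some vector libraries.

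dod-3 was read at 30.9, 11.6 and 7.64 CPM in libraries 8, 10 and 12 against 42.4, 17.4 and 11.2 CPM (log2 -0.499 ± 0.53). sod-3 stood at 4.11 ± 1.94 CPM against 4.18 ± 2.46 CPM on vector (log2 -0.02 ± 0.41), and nnt-1 at 16.998 ± 7.62 against 20.1 ± 13.2 CPM (log2 -0.24 ± 0.43). hsp-12.6 stood at 1.91 ± 0.87 against 2.49 ± 1.12 CPM, icl-1 at 391 ± 9.89 against 429 ± 146 CPM and lea-1 at 533 ± 188 against 484 ± 83.6 CPM. Libraries 7 and 8 were the highest of their groups for mtl-1, ftn-1, sod-3, hil-1, dod-3, hsp-12.6 and nnt-1 and the lowest for lea-1.

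The same values can be read within pairs of neighbouring libraries. In daf-16(mu86) 5 of 9 genes, sod-3, hil-1, dod-3, hsp-12.6 and nnt-1, were higher in the labelled library of each of the 3 pairs, against 39.5% of all genes, and lea-1 was lower in all 3, against 29.2%. In TU3311 4 of 9 genes, mtl-1, ftn-1, hil-1 and dod-3, were lower in the labelled library of each pair, against 9.85% of all genes, and 0 were higher in each pair, against 11.5%. Within pairs 7 and 8, 9 and 10, and 11 and 12, the log2 difference of ftn-1 was -1.11, -1.36 and -0.79, and that of dod-3 was -0.45, -0.58 and -0.55.

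**Figure D4:**
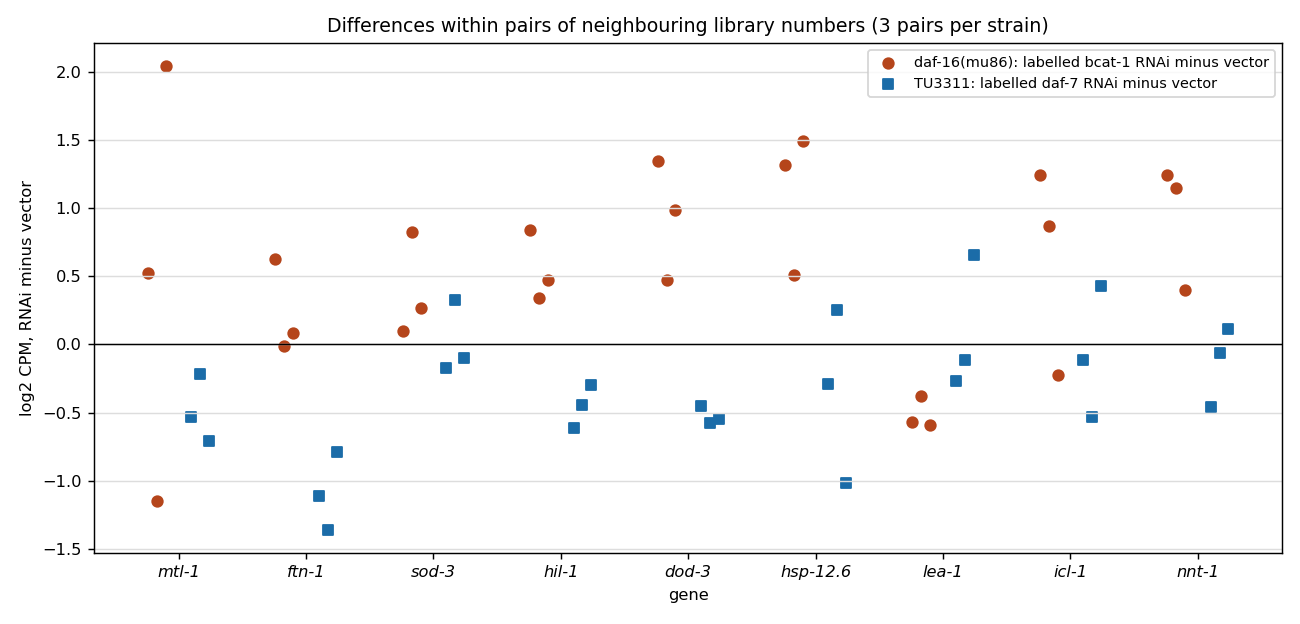
Log2 CPM of the RNAi-labelled library minus the vector library within pairs of neighbouring library numbers, for the 9 tested genes, 3 pairs per strain. Circles are daf-16(mu86) with bcat-1 label and squares are TU3311 with daf-7 label. dod-3 and hil-1 lie above 0 in all 3 circles and under 0 in all 3 squares, while lea-1 lies under 0 in all 3 circles.

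The last comparison tests whether the 2 responses differ, as the difference between the log2 change under the bcat-1 label in daf-16(mu86) and that under the daf-7 label in TU3311. Strain and label change together here, so their parts cannot be told apart. None of the 9 genes passed the edgeR test, with 0.102% of all genes called higher and 0.00602% called lower. At an unadjusted p under 0.05 there were 2 members, hil-1 and ftn-1, and 2047 of 16618 genes, and DESeq2 called none of the members. The differences were 1.503 ± 0.75 for dod-3 (edgeR adjusted p = 0.441), 1.34 ± 0.57 for ftn-1 (0.362) and 1.04 ± 0.42 for hil-1 (0.331). The value of dod-3 was 0.78 without library 7 and 2.29 without library 8, that of nnt-1 (1.15) was 0.49 without library 7, and that of hsp-12.6 (1.72) was 0.59 without library 6 and 2.45 without library 5. With the pair as a block, 5 of 9 passed with a difference above 0, where 15% of all genes were called higher and 11.2% lower. They were dod-3 (1.47 ± 0.22, edgeR adjusted p = 0.00433), ftn-1 (1.32 ± 0.24, 0.00782), hil-1 (1.01 ± 0.18, 0.00829), nnt-1 (1.07 ± 0.26, 0.018) and hsp-12.6 (1.57 ± 0.39, 0.0196). A positive difference need not be a rise under the bcat-1 label. For ftn-1 the blocked log2 change was 0.22 under that label (edgeR adjusted p = 0.328) and -1.10 under the daf-7 label (0.102).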

How the data were processed

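The deposited counts are whole-number reads per gene and library from TruSeq RNA v2 libraries of total RNA. They were made with STAR 2.4.1d, featureCounts 1.4.6-p4, bcl2fastq 1.8.4 and the build WBcel235, per the submitters' processing notes. The annotation release, strand setting and treatment of reads with several matches are not given in the sources used here. The deposited RPKM values were not used, because their per-million factor changes from gene to gene within a library.

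Counts were tested with the edgeR 4.0.16 quasi-likelihood F test (limma 3.58.1, R 4.3.3; two-sided, robust, TMM factors, default expression filter by group), all 4 groups in 1 fit with 8 residual degrees of freedom and adjustment over all 16618 genes. The SE is the absolute log2 difference over the square root of F. CPM are TMM-scaled, with a prior count of 2 on the log2 scale. Alternatives were RLE and upper-quartile factors, library totals, no filter, DESeq2 1.42.0, limma-voom, the compared groups alone, and omission of single replicates or of libraries 7 and 8. The edgeR test without a block was also run on simulated counts, for the strain and the bcat-1 comparisons only. The fit with the pair as a block and the difference between the responses were not simulated. Depth limits low genes: intervals for counts of 0 cover counting error only.

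The labels state no pairing. Deviations from group means correlated within neighbouring numbers at 0.398, 0.284 and 0.158 in daf-16(mu86) and 0.892, 0.777 and 0.504 in TU3311, each over 0.1, so the pair served as a block beside results that it changes. Other ways to pair the libraries were not compared, so this pairing is an assumption.

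Coordinates and exon lengths come from an annotation of WBcel235 that held 46449 of 46748 identifiers. The named genes are the 10 members, daf-16, relatives that were called (or else the most abundant), called genes of a list of DAF-16-activated genes with the 4 of smallest p, and the 3 genes nearest in pattern to the 2 most variable members. bcat-1 and daf-7 are given as the labelled targets. Members, lists and tests were chosen with earlier results of these data known.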

Additional observations from a re-analysis of the deposited data

Results flagged for a closer look

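The responses of 5 genes differed between the bcat-1 label in daf-16(mu86) and the daf-7 label in TU3311, where strain and label change together, when neighbouring library numbers were taken as a block, while the test without the block passed none of them. The same block called 15% of all genes higher and 11.2% lower. The difference in log2 change, the first minus the second, was 1.57 for hsp-12.6, 1.47 for dod-3, 1.32 for ftn-1, 1.07 for nnt-1 and 1.01 for hil-1. hil-1 also passed without libraries 7 and 8 (edgeR adjusted p = 0.0312), where 7.65% of all genes were called higher. hsp-12.6 rests on 94 to 338 reads per group. The labels state no pairing. It was assumed from correlations between neighbouring library numbers in these same data, and no other pairing was compared.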

How the results depend on the processing

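In the strain comparison 5 members were called lower, beside 6.5% of all genes. With library totals 8 were, beside 17.2%, and with single replicates left out 1 to 6 were, beside 0.158% to 7.23%. RLE, upper-quartile factors and library totals moved the median of all genes by 0.21, -0.33 and -0.28. In the bcat-1 comparison 0 were called, and 0 in each omission of a replicate. With the replicate block 5 were called, beside 25.7% of all genes higher and 18.5% lower. With the compared groups alone 4 were, beside 24% higher and 16.5% lower, and without libraries 7 and 8 also 4, beside 20.9% and 14.8%. In the difference between the responses 0 were called, and 0 in each omission of a replicate. With the replicate block 5 were called, beside 15% of all genes higher and 11.2% lower. Without libraries 7 and 8 there were 2 (hil-1 higher, lea-1 lower), beside 7.65% higher and 5.59% lower. In the daf-7 comparison 0 were called in each setting run. Signs changed for sod-3 under the daf-7 label (0.030 with limma-voom, 0.012 with the block, 0.14 without libraries 7 and 8). With single replicates left out, log2 ranged from -0.13 to 0.57 for ftn-1 and -0.065 to 1.01 for mtl-1 under the bcat-1 label. Under the daf-7 label it ranged from -1.29 to 0.22 for dod-3, -0.65 to 0.41 for nnt-1, -0.44 to 0.57 for sod-3, -0.34 to 0.16 for icl-1 and -0.14 to 0.38 for lea-1, and for the difference from -0.12 to 0.89 for sod-3. The causes were not tested. Of 126 gene values in the strain comparison 108 kept direction and call, 10 gained and 8 lost the call. Under the bcat-1 label 13 of 135 gained a call and 3 changed sign, under the daf-7 label 124 of 135 kept both, and in the difference 172 of 180 kept both and 7 gained a call. Both libraries of a pair are of 1 strain, so no blocked value exists for the strain comparison, and the difference uses all groups, so it has no fit of fewer groups. Low counts of scl-1, sod-3 and hsp-12.6 limit their precision.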

Other observations

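Of 10 genes of the insulin pathway that controls DAF-16, 2 were lower in daf-16(mu86) than in TU3311 on empty vector, beside 6.5% of all genes: daf-16 itself, which carries the deletion, and akt-2, one of the kinase genes upstream of it, at 13.6 ± 2.99 against 31.3 ± 13.5 CPM (SD, n = 3; log2 -1.20 ± 0.32, edgeR adjusted p = 0.0425, passed in 7 of 14 other settings). The receptor gene daf-2 stood at 182 ± 10.3 and 149 ± 56.2 CPM (log2 0.30 ± 0.33, adjusted p = 0.447). Without libraries 7 and 8, 4 of the 10 were called higher and 2 lower in daf-16(mu86), beside 15.8% and 15.7% of all genes. Under the bcat-1 label 0 of the 10 passed by edgeR, and with neighbouring library numbers as a block age-1, pdk-1, akt-1, daf-18 and aap-1 were lower, 5 of 10 where 18.5% of all genes were.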
